A study of Mus musculus with 6 samples.

Results

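The 8 genes Atp1b1, Tubb2b, Trpm1, Colq, Lad1, Chchd10, Pla2g4f and Actn1 had some of the largest falls in ILT3+ as compared with ILT3- CD4+CD25+ T cells of the mouse, among genes that are not known as T cell factors. They are 8 of the 38924 gene rows in the deposited tables, found by their symbols, and they were chosen by the same contrast that is described here. Their fold changes are therefore a description, and no test is given for them. The ILT3+ group was sorted by flow cytometry for ILT3, a receptor that inhibits immune cells, and the ILT3- group was the fraction without it. Both groups were wild type and untreated, came from spleen and mesenteric lymph nodes of males and females aged 10 to 16 weeks, and were enriched on magnetic columns for CD25+CD4+ T cells, a fraction rich in regulatory T cells. Each group had 3 samples, named by their sample numbers 1, 2 and 3, and values are always given in that order. The labels do not state that the samples were separate animals or whether animals were pooled, so p-values measure the scatter of these 6 samples, and that scatter may be partly technical.

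The 8 genes have unlike known roles. Atp1b1 encodes the beta-1 subunit of the sodium pump (Na,K-ATPase), which the catalytic alpha subunit needs to fold and to reach the plasma membrane. Tubb2b encodes a beta-tubulin best known from migrating and growing neurons, and Actn1 encodes alpha-actinin-1, which crosslinks actin filaments and links them to integrin contacts. Trpm1 is a cation channel of melanocytes and of the ON bipolar cells of the retina, and its gene also hosts the microRNA miR-211. Colq is the collagen tail that anchors acetylcholinesterase in the basal lamina of the neuromuscular junction, and Lad1 encodes ladinin-1, known from epithelial basement membranes. Chchd10 is a small protein of the mitochondrial intermembrane space, mutated in human motor neuron and muscle disease, and Pla2g4f encodes a cytosolic phospholipase A2, an enzyme that releases fatty acids from membrane phospholipids.

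Depth was 9334370 to 13648274 total gene reads per library, of which 24.0% to 28.3% lay in introns, and the floor of 3 reads per library corresponded to 0.220 to 0.321 CPM (reads scaled to library size). Floors cover counting error only, as the reads carry no molecular identifiers. The gene of the sorted protein, Lilrb4 in the files, had 304, 283 and 406 CPM in the ILT3+ libraries and 3.24, 4.31 and 5.80 CPM in the ILT3- libraries. Markers of the sorted T cells (7 genes, of which only Lilrb4 was called) summed to 3304 to 4359 CPM in ILT3+ and 2657 to 4391 CPM in ILT3- libraries. Markers of dendritic cells and macrophages summed to 53.6 to 484 CPM in ILT3+ libraries, the highest in sample 1, and to 18.7 to 28.2 CPM in ILT3- libraries. Red cell and platelet markers summed to 41.6 to 201 CPM in ILT3+ and 0.549 to 5.03 CPM in ILT3- libraries, with Pf4 and Ppbp at 0. Of these markers Hba-a1 (log2 fold change 5.39, adjusted p = 0.0324) and Hba-a2 (5.43, adjusted p = 0.0308) were called higher by edgeR. B cell markers summed to 38.7 to 97.8 CPM in ILT3+ and 26.2 to 45.4 CPM in ILT3- libraries, and CD8 T cell markers to 13.7 to 17.7 CPM in ILT3+ and 11.4 to 30.7 CPM in ILT3- libraries. Stroma and endothelium markers summed to 94.0 to 189 CPM in ILT3+ and 146 to 326 CPM in ILT3- libraries, mostly from Pecam1 (log2 fold change -0.86, adjusted p = 0.385 and with the block 0.0105). Pdgfrb of the same list was called higher, with 289 reads in the ILT3+ group and 4 in the ILT3- group (adjusted p = 0.00995, edgeR). The part of these other cell types in the results was not tested. In bulk RNA, fewer cells that express a gene and less of its RNA per cell cannot be told apart.

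All 8 genes were lower in ILT3+ libraries, with log2 fold changes between -3.53 (Atp1b1) and -1.67 (Actn1). In each of them every ILT3+ library lay below every ILT3- library, which held for 1199 of 13694 tested genes, or 8.76%. The lowest ILT3- library was 1.51 times (Actn1) to 5.72 times (Atp1b1) the highest ILT3+ library. All 8 had enough reads to be tested and all 8 were among the 47 genes called lower in ILT3+ cells (0.343% of tested genes), as their choice required. By edgeR's quasi-likelihood test 316 genes (2.31%) were called in either direction at an adjusted p of 0.05, and 269 of them (1.96%) were higher in ILT3+ cells. Leaving out 1 library of the ILT3+ group gave 53 (sample 2) or 57 (sample 3) calls, and 1 of the ILT3- group 67 (sample 2) or 31 (sample 3). Of those calls 2, 1, 4 and 4 were lower in ILT3+ cells, so that at most 4 of the 8 genes can be among them. Leaving out the samples numbered 1 of both groups gave more calls than the full fit, so the count depended on which samples were left out. The median log2 fold change over all tested genes was -0.02. Among the 39 genes called lower with a mean of at least 10 CPM the 8 genes took places 1, 2, 4, 5, 7, 8, 10 and 16 by log2 fold change. St8sia6, Eno3 and St8sia1, at places 3, 6 and 9, are not among the 8. Pla2g4f (-2.14) was just above Gsta4 (-2.05) in that order, and Actn1 (-1.67), the smallest fall of the 8, stood between Ccdc64 (-1.84) and Satb1 (-1.64).

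**Figure D1:**
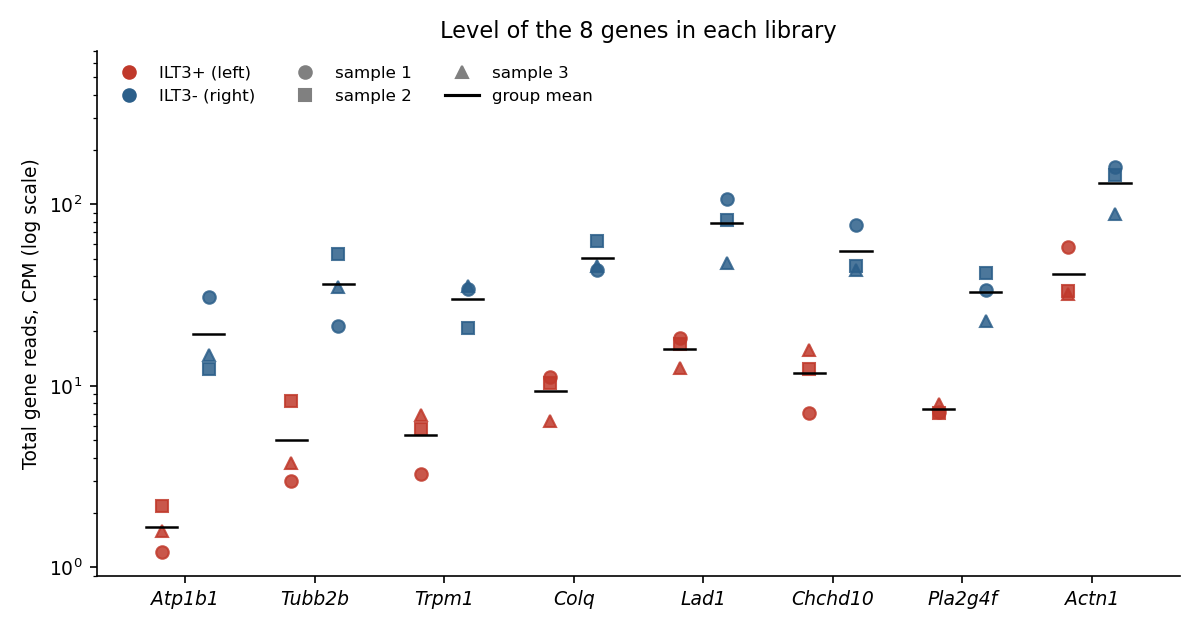
Total gene reads of the 8 genes in each library, in CPM on a log axis, with ILT3+ libraries on the left and ILT3- libraries on the right of each gene, a marker shape per sample number and a bar for the mean of 3 libraries. Every ILT3+ point lies below every ILT3- point of the same gene, with the widest gap for Atp1b1 and the narrowest for Actn1.

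Promoter sequence was available for 6 of the 8 genes, in the RefSeq table for GRCm38.p6 (250 bases before to 50 bases after each start site), and Tubb2b and Colq were not matched. Those of Atp1b1, the gene with the largest fall, and of the genes with a match to 1 of 7 searched motifs are shown, on the strand of the gene and 5′ to 3′, with motif matches in capitals.
Atp1b1, chr1:164458306-164458605, minus strand: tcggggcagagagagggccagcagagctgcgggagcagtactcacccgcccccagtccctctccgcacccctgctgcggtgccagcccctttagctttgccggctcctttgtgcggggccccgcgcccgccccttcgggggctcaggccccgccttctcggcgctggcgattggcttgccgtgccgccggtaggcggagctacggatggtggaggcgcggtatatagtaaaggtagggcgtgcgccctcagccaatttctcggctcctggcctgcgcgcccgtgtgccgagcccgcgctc
Trpm1 first start, chr7:64153585-64153884, plus strand: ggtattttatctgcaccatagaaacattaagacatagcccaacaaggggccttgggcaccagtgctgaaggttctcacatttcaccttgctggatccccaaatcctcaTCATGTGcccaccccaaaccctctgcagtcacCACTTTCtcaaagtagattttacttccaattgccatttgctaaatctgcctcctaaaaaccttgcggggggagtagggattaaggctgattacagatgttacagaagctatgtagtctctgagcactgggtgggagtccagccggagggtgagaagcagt
Trpm1 second start, chr7:64185209-64185508, plus strand: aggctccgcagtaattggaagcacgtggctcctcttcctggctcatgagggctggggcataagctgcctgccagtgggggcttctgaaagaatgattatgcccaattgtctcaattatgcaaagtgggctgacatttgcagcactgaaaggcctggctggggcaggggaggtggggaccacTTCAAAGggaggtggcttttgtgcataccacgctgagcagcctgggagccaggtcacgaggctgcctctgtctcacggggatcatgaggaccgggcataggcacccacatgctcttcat
Chchd10, chr10:75932880-75933179, plus strand: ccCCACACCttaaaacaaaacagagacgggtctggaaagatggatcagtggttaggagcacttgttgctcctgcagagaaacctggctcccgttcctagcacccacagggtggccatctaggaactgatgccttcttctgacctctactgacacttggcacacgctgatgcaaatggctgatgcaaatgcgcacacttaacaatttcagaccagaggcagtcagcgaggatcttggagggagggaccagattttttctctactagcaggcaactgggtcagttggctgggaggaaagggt
Actn1, chr12:80260314-80260613, minus strand: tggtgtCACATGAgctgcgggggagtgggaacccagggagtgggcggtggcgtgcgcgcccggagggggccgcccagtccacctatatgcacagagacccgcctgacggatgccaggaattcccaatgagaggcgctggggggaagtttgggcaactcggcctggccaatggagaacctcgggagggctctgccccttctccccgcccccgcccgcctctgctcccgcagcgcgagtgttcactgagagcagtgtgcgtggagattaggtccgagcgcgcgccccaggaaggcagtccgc
Searched on both strands were 7 short motifs. The LEF1/TCF motif was taken as the letters CTTTGAA, and that of forkhead factors, a family that includes Foxp3, as GTAAACA. For the zinc finger factors of the KLF family the letters were CCACACC, and for BLIMP-1, a repressor known from effector lymphocytes, they were GAAAGTG. The M-box, bound by MITF-type factors in pigment cells, was searched as CACATGA. The cyclic AMP response element was searched as the letters TGACGTC and the TATA box as TATAAA. No matches overlapped. In these windows the first Trpm1 promoter held an M-box at position -142 from the start site and a BLIMP-1 match at -110, and the second a LEF1/TCF match at -69. Chchd10 held a KLF match at -248 and Actn1 an M-box at -244. No match was found for Atp1b1, Lad1 or Pla2g4f, which says only that these letters are not in these windows. Over all 32851 promoters of the table the share with a match was 3.77% for the M-box, 4.81% for BLIMP-1, 5.14% for LEF1/TCF, 7.58% for KLF, 3.65% for forkhead, 3.21% for the cyclic AMP response element and 13.6% for the TATA box. The Atp1b1 window was 71.0% G and C and that of Actn1 68.3%, above the median of 52.7% over all promoters, while the first Trpm1 window, at 48.3%, was below it.

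Atp1b1 (GRCm38 chromosome 1, 164437267 to 164458355, minus strand) had the largest difference of the 8. It had 1.22, 2.17 and 1.59 CPM in the ILT3+ libraries, against 30.7, 12.4 and 14.9 CPM in the ILT3- libraries. All ILT3+ libraries were below 3 CPM, and ILT3- sample 1 was more than 2 times as high as the other ILT3- libraries. The mean was 1.66 ± 0.478 CPM over the ILT3+ libraries and 19.3 ± 9.93 CPM over the ILT3- libraries (± SD, n = 3 each), and the log2 fold change was -3.53 (SE 0.53). Leaving out the samples numbered 1 of both groups made it -2.82. No other sodium pump gene passed the test. Of 14 listed pump subunits and regulators 5 were tested and 0 were called by edgeR, 2 had an unadjusted p under 0.05 and 1 was called by DESeq2. Atp1b3, which encodes the beta-3 subunit, had 234, 342 and 347 CPM in the ILT3+ libraries, against 490, 461 and 483 CPM in the ILT3- libraries. Its groups did not overlap, but the difference did not pass the test (log2 fold change -0.63, SE 0.20, adjusted p = 0.201). Fxyd5, a regulator of the pump, had a fitted log2 fold change of 0.21 (SE 0.24, adjusted p = 0.801).

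Tubb2b and Actn1 are the 2 genes of the cytoskeleton. Tubb2b (chromosome 13, 34127008 to 34130354, minus strand) had 2.99, 8.26 and 3.74 CPM in the ILT3+ libraries, against 21.3, 53.3 and 34.9 CPM in the ILT3- libraries. Sample 2 was the highest and sample 1 the lowest in both groups, and the groups did not overlap. The mean was 5.0 ± 2.85 CPM over the ILT3+ libraries and 36.5 ± 16.0 CPM over the ILT3- libraries (± SD, n = 3 each), with a log2 fold change of -2.86 (SE 0.52). Only 61.0% of its reads in ILT3+ and 62.0% in ILT3- libraries were uniquely placed. The nearest gene on its lower side, Tubb2a, lies 49000 bp away and is a near copy. Over the coding sequence of 1338 bases the genes differ at 47 bases and share 96.5%, and 33.4% of the 50-base windows of the Tubb2b transcript occur unaltered in that of Tubb2a. Bases 112 to 171 of both coding sequences are given from GENCODE M21 on GRCm38, both on chromosome 13, with the 10 differing bases in capitals. They were picked as the 60-base stretch with the most differences, so the rest of the coding sequence is more alike.
Tubb2b: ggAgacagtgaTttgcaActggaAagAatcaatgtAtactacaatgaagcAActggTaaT
Tubb2a: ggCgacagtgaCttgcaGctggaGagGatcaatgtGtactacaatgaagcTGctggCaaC
Reads of these stretches can be told apart, whereas reads of identical windows cannot, so the Tubb2b value is uncertain to that extent. On uniquely placed reads alone the log2 fold change of Tubb2b was -2.89. Neuron markers (7 genes) summed to 12 to 29.6 CPM in ILT3+ and 11.0 to 41.9 CPM in ILT3- libraries.

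Tubb2a itself had 24.1, 65.4 and 66.7 CPM in the ILT3+ libraries, against 47.0, 225 and 231 CPM in the ILT3- libraries. The groups overlapped through the samples numbered 1, which were the lowest of both. The log2 fold change of -1.69 (SE 0.61) did not pass the test (adjusted p = 0.266, edgeR), and it passed with the sample number as a block (adjusted p = 0.0102). Of 18 tubulin genes besides Tubb2b 14 were tested, with a median log2 fold change of 0.18, 1 called higher and 0 lower. The called one was Tuba8, an alpha-tubulin, with 13.6, 24.6 and 21.9 CPM in the ILT3+ libraries, against 0.240, 2.04 and 0.942 CPM in the ILT3- libraries. Tuba8 rose, with a log2 fold change of 4.17 and an SE of 0.71 (adjusted p = 0.0285, edgeR). Its adjusted p was 0.117 or 0.115 when ILT3+ sample 2 or 3 was left out, and 0.0580 or 0.139 when ILT3- sample 2 or 3 was. The most counted tubulin genes, Tubb5 and Tuba1b, did not pass the test, with log2 fold changes of -0.03 (SE 0.23, adjusted p = 0.981) and 0.23 (SE 0.23, adjusted p = 0.761). Only 21.8% of the Tuba1b reads in ILT3+ and 22.5% in ILT3- libraries were uniquely placed.

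Actn1 (chromosome 12, 80167542 to 80260371, minus strand) was the gene with the most reads of the 8. It had 58.2, 33.2 and 31.9 CPM in the ILT3+ libraries, against 159, 144 and 87.9 CPM in the ILT3- libraries. Sample 1 was the highest and sample 3 the lowest in both groups. The mean was 41.1 ± 14.8 CPM over the ILT3+ libraries and 130 ± 37.7 CPM over the ILT3- libraries (± SD, n = 3 each), and the log2 fold change was -1.67 (SE 0.32). The deposited tables list 2 transcripts for Actn1, of which 1 was counted as detected in every ILT3+ library and 2 in every ILT3- library, by a criterion that is not given in the sources used here. The ILT3+ libraries had 622, 414 and 401 Actn1 reads and the ILT3- libraries 1329, 1840 and 1212. Whether the number of detected transcripts follows the number of reads was not tested. Another alpha-actinin gene, Actn4, had a fitted log2 fold change of -0.03 (SE 0.18, adjusted p = 0.968). The muscle form Actn2 had 2.43, 1.44 and 0.477 CPM in the ILT3+ libraries, against 14.0, 3.92 and 4.78 CPM in the ILT3- libraries, and its fitted log2 fold change was -2.38 (SE 0.80, adjusted p = 0.229 in edgeR and 0.0342 in DESeq2). Both were named after their values were seen.

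Of 29 further genes of alpha-actinins and focal contacts 23 were tested, with a median log2 fold change of -0.03, 0 called higher and 1 lower. At an unadjusted p under 0.05 there were 6, and DESeq2 called 5, namely Actn2, Evl, Pdlim1, Pdlim4 and Parvb. Parvb, which encodes beta-parvin of focal contacts, had an edgeR log2 fold change of 4.33 and an SE of 1.16 (adjusted p = 0.124). The gene called by edgeR was Pdlim1, a PDZ and LIM domain protein that binds alpha-actinin. Pdlim1 had 35.9, 30.8 and 37.5 CPM in the ILT3+ libraries, against 138, 76.8 and 76.7 CPM in the ILT3- libraries, where sample 1 stood highest. Pdlim1 fell, with a log2 fold change of -1.48 and an SE of 0.28 (adjusted p = 0.0386, edgeR). On exon reads its adjusted p was 0.0600. It was 0.0787, 0.170 and 0.144 without ILT3+ sample 1, 2 or 3, and 0.0934 and 0.0897 without ILT3- sample 2 or 3. Flna, an actin crosslinker, and Itgb2, the beta chain of LFA-1, were the most counted of these genes and had log2 fold changes of 0.12 (SE 0.20, adjusted p = 0.864) for Flna and -0.02 (SE 0.35, adjusted p = 0.991) for Itgb2. With the sample number as a block Pdlim4 was among those called higher, and Pdlim1 and Evl were called lower. Pdlim4 had a total of 82 reads in the ILT3+ and 0 in the ILT3- group, which is at least 26.7-fold higher when the group with none is set to a sum of 3 reads, and its adjusted p without the block was 0.0614.

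Trpm1 (chromosome 7, 64153835 to 64269775, plus strand) had 3.28, 5.78 and 6.92 CPM in the ILT3+ libraries, against 33.9, 20.9 and 35.5 CPM in the ILT3- libraries. No ILT3+ library reached 7 CPM and no ILT3- library was below 20 CPM. The mean was 5.32 ± 1.87 CPM over the ILT3+ libraries and 30.1 ± 8.00 CPM over the ILT3- libraries (± SD, n = 3 each), and the log2 fold change was -2.49 (SE 0.41). The microRNA genes inside Trpm1, Mir211 and mmu-mir-6416, had 0 reads in all 6 libraries. These libraries were made from full-length cDNA, and mature microRNAs were not assayed. In 9 marker genes of melanocytes and retinal bipolar cells, the cells best known for Trpm1, the sum was 13.2 to 18.5 CPM in ILT3+ and 17.6 to 40.9 CPM in ILT3- libraries, and 2 of the 9, Pmel and Nyx, had enough reads to be tested. Neither was called. Tyr, Tyrp1, Dct, Mlana, Sox10 and Grm6, which are known from these cells, had 0 to 5 reads in the ILT3+ group and 0 to 9 in the ILT3- group. Of 25 other TRP channel genes 12 were tested and 0 called by edgeR (median log2 fold change -0.18), 2 had an unadjusted p under 0.05 and 1 was called by DESeq2. That gene was Trpv2, a channel known from immune cells, with 167, 185 and 150 CPM in ILT3+ and 114, 96.0 and 85.3 CPM in ILT3- libraries (log2 fold change 0.76, SE 0.18, adjusted p = 0.0859 and with the block 0.0233). Trpm7, the most counted TRP channel gene, had a fitted log2 fold change of -0.34 (SE 0.16, adjusted p = 0.410).

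Colq and Lad1 encode proteins of the extracellular matrix and its attachment. Colq (chromosome 14, 31523082 to 31591343, minus strand) had 11.2, 10.3 and 6.37 CPM in the ILT3+ libraries, against 43.6, 63.1 and 45.7 CPM in the ILT3- libraries. The lowest ILT3- library was thus several times the highest ILT3+ library. The mean was 9.31 ± 2.59 CPM over the ILT3+ libraries and 50.8 ± 10.7 CPM over the ILT3- libraries (± SD, n = 3 each), with a log2 fold change of -2.45 (SE 0.31). The Colq model overlaps that of Hacl1, a gene of peroxisomal fatty acid breakdown on the same strand, by 38439 bp. Uniquely placed reads made up 91.8% of Colq reads in ILT3+ and 75.8% in ILT3- libraries. Hacl1 had 12.4, 17 and 17.7 CPM in ILT3+ and 28.5, 22.3 and 12.5 CPM in ILT3- libraries, with overlapping groups (log2 fold change -0.42, SE 0.38, adjusted p = 0.728). On unique reads the log2 fold change of Colq was -2.19. Ache, the esterase that Colq anchors, had a total of 37 reads in the ILT3+ and 17 in the ILT3- group, too few to be tested. Of 25 listed esterases, anchors and acetylcholine receptor genes 24 were in the files, 7 were tested and 0 were called, with 0 at an unadjusted p under 0.05 and 0 called by DESeq2. The most counted were Agrn, which encodes the synapse organiser agrin, and Chrnb1, a receptor subunit of muscle, with log2 fold changes of 0.83 (SE 0.95, adjusted p = 0.800) and 0.07 (SE 0.69, adjusted p = 0.982). Skeletal and heart muscle markers (9 genes) summed to 2.53 to 6.50 CPM in ILT3+ and 3.60 to 8.78 CPM in ILT3- libraries, and Acta1, Myh2, Myh6 and Myog were at 0.

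Lad1 (chromosome 1, 135818598 to 135833341, plus strand) had 18.3, 17.1 and 12.5 CPM in the ILT3+ libraries, against 106, 82.0 and 47.6 CPM in the ILT3- libraries. The order of the samples was the same in both groups, with sample 1 highest and sample 3 lowest. The mean was 16.0 ± 3.08 CPM over the ILT3+ libraries and 78.6 ± 29.5 CPM over the ILT3- libraries (± SD, n = 3 each), and the log2 fold change was -2.30 (SE 0.34). Epithelial markers (7 genes) summed to 9.87 to 12.3 CPM in ILT3+ and 4.49 to 10.9 CPM in ILT3- libraries, and Krt15 was at 0. Krt18 was called higher, with 87 reads in the ILT3+ group and 0 in the ILT3- group (adjusted p = 0.0314, edgeR), and Krt8 had 32 reads in the ILT3+ group and 0 in the ILT3- group. Their part in the Lad1 result was not tested. Of 12 genes of hemidesmosomes and basement membrane anchors 7 were tested and 0 called by edgeR (median log2 fold change 0.06), 2 had an unadjusted p under 0.05 and 1 was called by DESeq2. The 2 most counted were Itga6 and Plec. Itga6, the alpha-6 integrin chain, had 81.2, 60.2 and 35.7 CPM in the ILT3+ libraries, against 206, 153 and 89.7 CPM in the ILT3- libraries. It showed the same order of samples as Lad1, and its log2 fold change of -1.34 (SE 0.38, adjusted p = 0.148) passed with the block (adjusted p = 0.00426) and by DESeq2 (adjusted p = 0.0220). Plec, which encodes the linker plectin, had a fitted log2 fold change of 0.06 (SE 0.20, adjusted p = 0.939).

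Chchd10 and Pla2g4f encode the mitochondrial protein and the enzyme. Chchd10 (chromosome 10, 75935573 to 75937725, plus strand) had 7.11, 12.4 and 15.7 CPM in the ILT3+ libraries, against 77.2, 45.5 and 43.2 CPM in the ILT3- libraries. Sample 1 was the lowest of the ILT3+ and the highest of the ILT3- libraries. The mean was 11.7 ± 4.32 CPM over the ILT3+ libraries and 55.3 ± 19.0 CPM over the ILT3- libraries (± SD, n = 3 each), with a log2 fold change of -2.23 (SE 0.38), and of -1.63 without the samples numbered 1. Of 25 listed genes of CHCH domain proteins and the MICOS complex of mitochondrial cristae 24 were in the files and all 24 of these were tested. Their median log2 fold change was 0.03, and 0 were called by edgeR, 1 had an unadjusted p under 0.05 and 1, Cmc2, was called by DESeq2. Chchd2, the closest relative of Chchd10, had 276, 337 and 382 CPM in ILT3+ and 267, 344 and 439 CPM in ILT3- libraries, with overlapping groups (log2 fold change -0.08, SE 0.23, adjusted p = 0.936). Of the Chchd2 reads 8.15% were uniquely placed in either group, so that value is uncertain. Coa5, a cytochrome oxidase assembly factor, had a fitted log2 fold change of -0.19 (SE 0.18, adjusted p = 0.751).

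Pla2g4f (chromosome 2, 120299957 to 120314165, minus strand) had 7.21, 7.06 and 7.96 CPM in the ILT3+ libraries, against 33.8, 41.7 and 22.7 CPM in the ILT3- libraries. The ILT3+ values were the most even of the 8 genes relative to their mean. The mean was 7.41 ± 0.482 CPM over the ILT3+ libraries and 32.7 ± 9.55 CPM over the ILT3- libraries (± SD, n = 3 each), and the log2 fold change was -2.14 (SE 0.33). Pla2g4d, the neighbouring gene of the same family, had a total of 0 reads in the ILT3+ and 2 in the ILT3- group. Pla2g4b, another member of the family, was named after its values were seen. It had 6.74, 12.3 and 8.04 CPM in ILT3+ and 40.4, 19.3 and 18.9 CPM in ILT3- libraries, with 5.21% of its reads in ILT3+ and 4.50% in ILT3- libraries uniquely placed (log2 fold change -1.53, SE 0.43, adjusted p = 0.143). Of 23 genes of cytosolic phospholipases and eicosanoid enzymes 11 were tested and 0 called by edgeR (median log2 fold change 0.15), 3 had an unadjusted p under 0.05 and 2, Pla2g4b and Ptges, were called by DESeq2. Ptges, a prostaglandin E synthase, had 10.0, 17.6 and 15.9 CPM in ILT3+ and 0.120, 2.12 and 0.217 CPM in ILT3- libraries (log2 fold change 4.09, SE 0.97, adjusted p = 0.0856 and with the block 0.0221). Lta4h and Ptges3, the most counted of these genes, had log2 fold changes of -0.38 (SE 0.23, adjusted p = 0.552) and -0.05 (SE 0.22, adjusted p = 0.959), with 28.7% of Ptges3 reads in ILT3+ and 31.0% in ILT3- libraries uniquely placed.

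**Figure D2:**
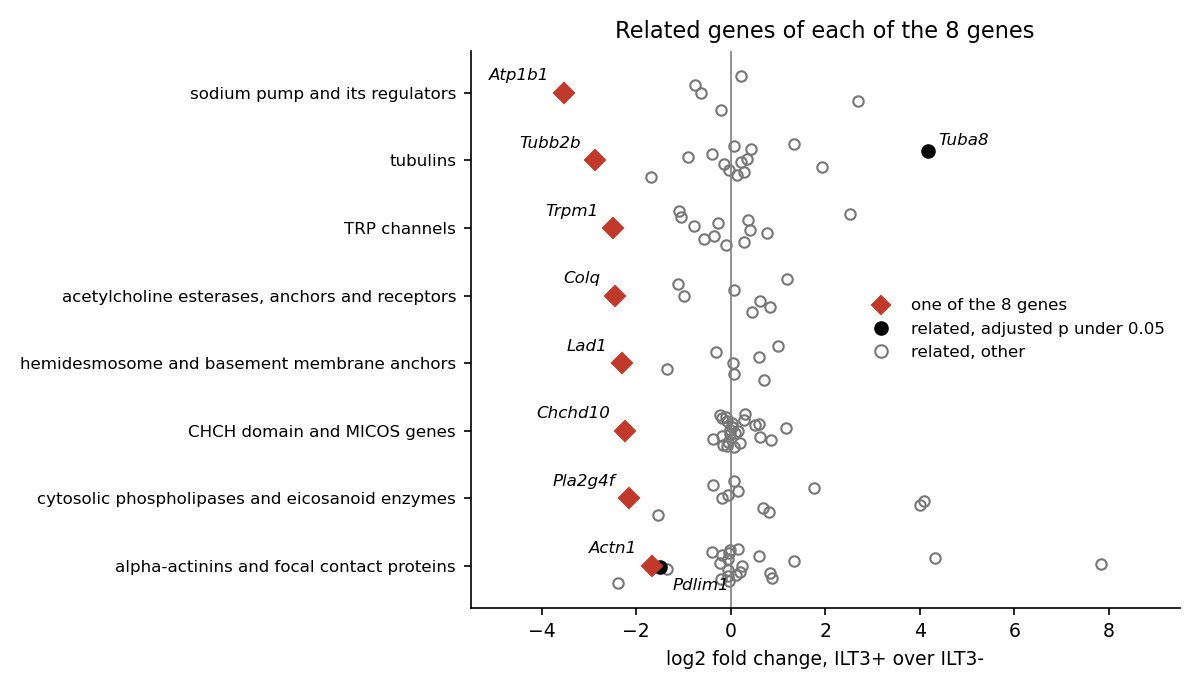
Log2 fold changes, ILT3+ over ILT3-, of the 8 genes (diamonds) and of the tested genes of the 8 lists of related genes (circles), 1 list per row. Of 103 related genes Tuba8 (4.17) and Pdlim1 (-1.48) passed an adjusted p of 0.05, and their median was 0.07; Pdlim4, at the far right, had 0 reads in ILT3- libraries, so that its fitted value is no measure of size.

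Over all 8 lists 171 related genes were listed, 169 were in the files and 103 were tested. Of these 2 were called (1.94%), close to the 2.31% of all tested genes, and their median log2 fold change was 0.07. At an unadjusted p under 0.05 were 18 (17.5%), against 13.8% of all tested genes, and DESeq2 called 12 (11.7%), against 7.13%. With the sample number as a block 9 were called (8.74%), 5 higher and 4 lower, against 932 (6.81%) of all tested genes, of which 573 (4.18%) were higher and 359 (2.62%) lower. The 9 included Tuba8, Trpv2, Ptges and Pdlim4, which were higher, and Tubb2a, Itga6, Evl and Pdlim1, which were lower. By edgeR, without or with the block, no list had more than 2 members called lower. In the list of alpha-actinins and focal contacts DESeq2 called Actn2, Evl and Pdlim1, whose edgeR log2 fold changes were negative. It also called Pdlim4 and Parvb of that list, whose values were positive.

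The 8 genes differed in how far the libraries of the same sample number stood apart. For Tubb2b the log2 ratios of ILT3+ over ILT3- were -2.83, -2.69 and -3.22 for numbers 1, 2 and 3, a narrow range. For Atp1b1 they were -4.66, -2.52 and -3.22 and for Trpm1 -3.37, -1.86 and -2.36. Chchd10 had -3.44, -1.88 and -1.46. In these 3 genes the samples numbered 1 stood farthest apart. The same was true of Lad1 (-2.53, -2.26 and -1.93), but not of Colq (-1.96, -2.61 and -2.85), Pla2g4f (-2.23, -2.56 and -1.51) or Actn1 (-1.45, -2.12 and -1.46). All 24 ratios were negative.

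**Figure D3:**
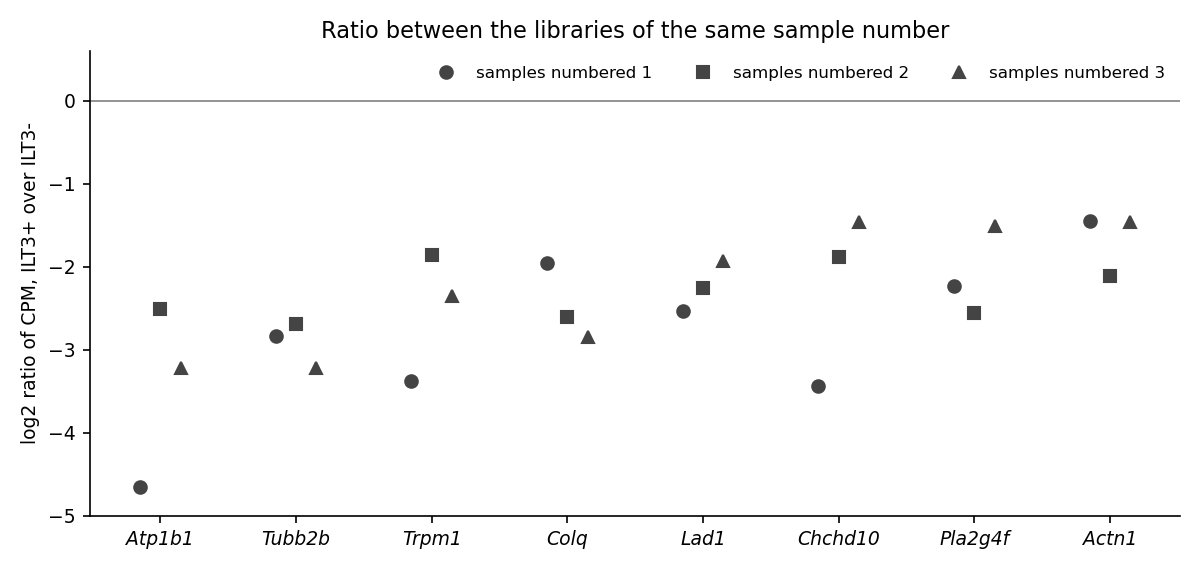
Log2 ratio of CPM, ILT3+ over ILT3-, between the libraries of the same sample number for each of the 8 genes, with a marker shape per number. All points lie below 0, and the samples numbered 1 have the lowest ratio in Atp1b1, Trpm1, Lad1 and Chchd10.

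Per length of annotated exon the order of the genes changed. Levels were taken as exon reads per kilobase of exon, scaled to library size as CPM are. Chchd10 had the highest mean of the 8 in both groups. Its level was 12.2 ± 5.03 in ILT3+ and 58.5 ± 20.3 in ILT3- cells (SD, n = 3 each, as for the levels that follow). In ILT3+ sample 1, however, Actn1 (9.96) was above Chchd10 (6.78). Lad1 (5.28 ± 1.07 in ILT3+ and 25.8 ± 9.92 in ILT3- cells) and Actn1 (6.91 ± 2.79 in ILT3+ and 23.7 ± 8.98 in ILT3- cells) came next, and they did not differ from each other beyond their spread. The level of Tubb2b was 2.58 ± 1.5 in ILT3+ and 18.9 ± 8.36 in ILT3- cells, where it lay within the spread of Actn1. Pla2g4f (1.33 ± 0.249 in ILT3+ and 7.55 ± 1.88 in ILT3- cells), Colq (1.09 ± 0.352 in ILT3+ and 6.94 ± 1.28 in ILT3- cells) and Atp1b1 (0.462 ± 0.196 in ILT3+ and 6.07 ± 3.51 in ILT3- cells) lay within each other's spread in ILT3- cells. Trpm1 was the lowest, with 0.325 ± 0.177 in ILT3+ and 2.01 ± 0.823 in ILT3- cells, and in ILT3+ cells it lay within the spread of Atp1b1. Lengths are those of the deposited models, and a transcript that uses fewer exons would have a higher level per length.

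The falls were seen in reads of exons, in reads over exon junctions and, where there were enough, in reads of introns. Exon reads summed over the group were 40 in ILT3+ and 466 in ILT3- libraries for Atp1b1. They were 560 in ILT3+ and 2541 in ILT3- libraries for Lad1, and 918 in ILT3+ and 2950 in ILT3- libraries for Actn1. Reads over exon junctions were 6 in ILT3+ and 70 in ILT3- libraries for Atp1b1, and 320 in ILT3+ and 1047 in ILT3- libraries for Actn1. For Trpm1 they were 34 in ILT3+ and 187 in ILT3- libraries, and for Colq 22 in ILT3+ and 199 in ILT3- libraries. Spliced transcripts of each of the 8 genes were thus counted in both groups. On exon reads the log2 fold changes were -3.72 for Atp1b1, -2.89 for Tubb2b, -2.64 for Trpm1, -2.69 for Colq, -2.32 for Lad1, -2.28 for Chchd10, -2.53 for Pla2g4f and -1.80 for Actn1. On intron reads they were -2.93 for Atp1b1 (SE 1.18), -1.99 for Trpm1, -2.11 for Colq, -1.30 for Pla2g4f and -1.31 for Actn1. In all 5 the intron value was smaller in size than the exon value, and no test of that difference was made. For Atp1b1 the ILT3+ libraries had 1, 19 and 0 intron reads, so its intron value rested mostly on ILT3+ sample 2. Too few intron reads for a value were counted for Tubb2b (1 in ILT3+ and 4 in ILT3- libraries), Lad1 (6 in ILT3+ and 49 in ILT3- libraries) and Chchd10 (8 in ILT3+ and 13 in ILT3- libraries). The share of reads in introns was largest for Colq, at 54.4% in ILT3+ and 48.2% in ILT3- libraries. Per library the Colq share was 73.3%, 45.7% and 40.0% in ILT3+ and 46.7%, 49.3% and 47.7% in ILT3-. On uniquely placed reads it was 73.6%, 39.1% and 37.7% in ILT3+ and 37.5%, 34.5% and 35.6% in ILT3-. The Colq intron fold change also counts reads that were not uniquely placed. The pooled share was 42.3% in ILT3+ and 26.7% in ILT3- libraries for Pla2g4f, and 36.1% in ILT3+ and 32.7% in ILT3- libraries for Actn1.

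**Figure D4:**
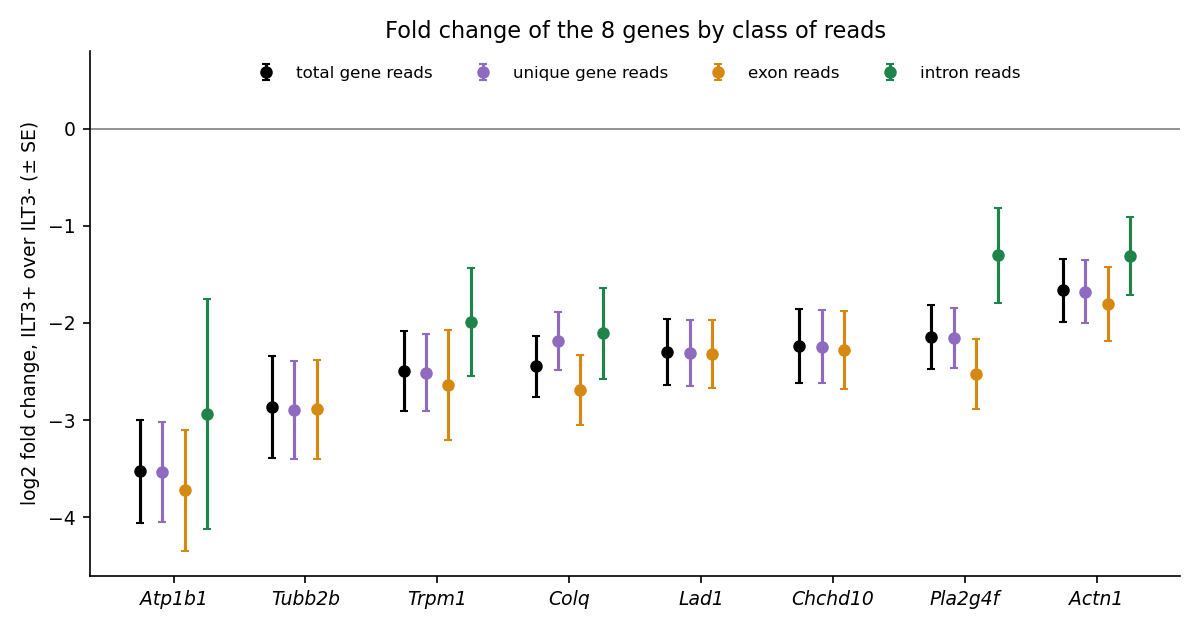
Log2 fold changes, ILT3+ over ILT3-, with SE, of the 8 genes on total, unique, exon and intron reads. All values lie below 0, intron values are given for 5 genes, and the widest error is that of Atp1b1 on intron reads (-2.93, SE 1.18).

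Of the genes next to the 8, none passed the test without a block. The rows that overlap them or lie nearest on either side numbered 21, of which 11 had enough reads. By edgeR 0 of the 11 were called, with 3 at an unadjusted p under 0.05 and 2 called by DESeq2, Tnnt2 and Mmp11. With the sample number as a block 2 were called, Tubb2a (described with Tubb2b) and Tnnt2. Over all tested genes these shares were 13.8% at an unadjusted p under 0.05, 7.13% by DESeq2 and 6.81% with the block. Tnnt2, the troponin T gene of heart muscle, starts 3045 bp after the end of Lad1 on the same strand. It had 0.187, 1.12 and 0.875 CPM in the ILT3+ libraries, against 10.5, 6.03 and 9.06 CPM in the ILT3- libraries. Its groups were far apart, but few of its reads were exonic, 8 of 27 in ILT3+ and 57 of 290 in ILT3- libraries. The log2 fold change of Tnnt2 was -3.52 (SE 0.72, adjusted p = 0.0532, with the block 0.0443), beside -2.30 for Lad1.

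Mmp11, a matrix metalloproteinase gene, lies 3071 bp from the Chchd10 model on the opposite strand. The RefSeq start of Chchd10 is 2443 bp upstream of the start of the model in the files and 628 bp from Mmp11. Mmp11 had 0.374, 1.6 and 2.86 CPM in the ILT3+ libraries, against 10.3, 8.54 and 6.16 CPM in the ILT3- libraries. As in Chchd10, sample 1 was the lowest of the ILT3+ and the highest of the ILT3- libraries, and the difference did not pass the test (log2 fold change -2.35, SE 0.73, adjusted p = 0.193, with the block 0.124). On the other side the predicted gene Gm867 overlaps Chchd10 by 5 bp and had a total of 0 reads in the ILT3+ and 21 in the ILT3- group, which is at least 7.16-fold lower when the group with none is set to a sum of 3 reads. Of the other tested neighbours, Nme7, Psmg4, Mtmr10, Hacl1, Eaf1, Btd, Vps39 and 2310015A10Rik, the log2 fold changes lay between -0.42 and 0.58, with adjusted p-values between 0.525 and 0.984. Gm24057, inside Colq, and Gm20727, next to Actn1, had 0 reads, and Gm26685, Gm20670, Tnni1, Vpreb3 and Pla2g4d had too few to be tested. The counting of strand is not given in the sources used here, so reads of overlapping genes on opposite strands may be mixed.

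**Figure D5:**
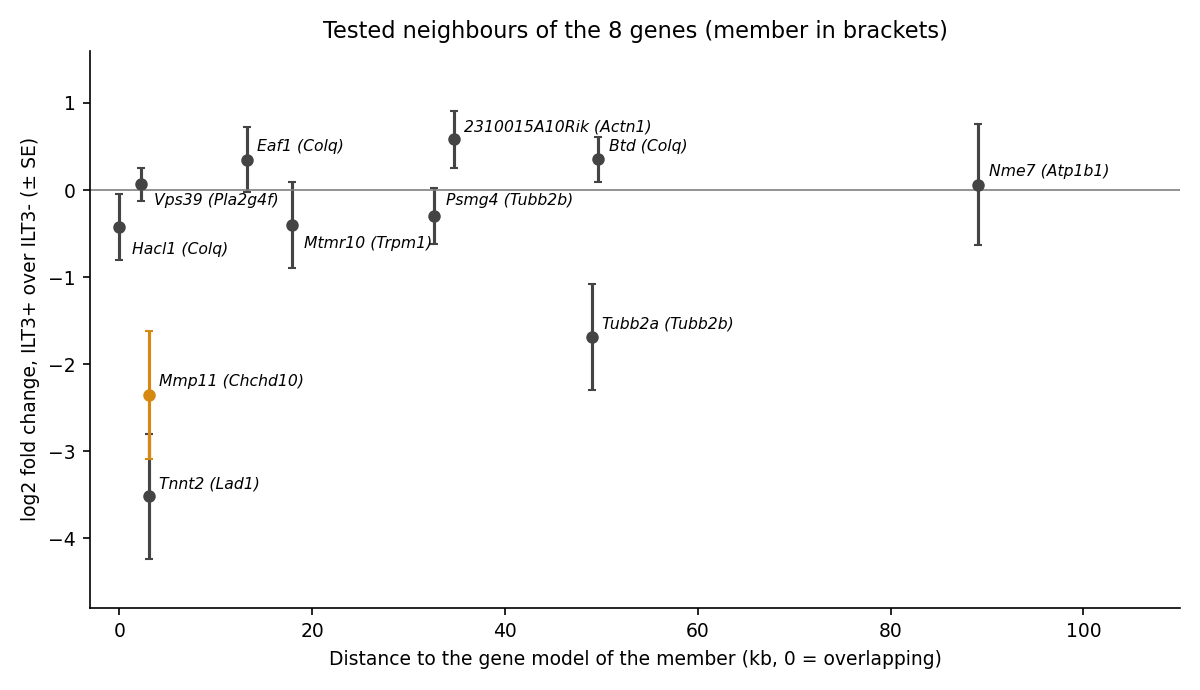
Log2 fold changes, ILT3+ over ILT3-, with SE, of the 11 tested neighbours of the 8 genes against their distance in kb, with the gene they neighbour in brackets. Tnnt2 (-3.52), Mmp11 (-2.35) and Tubb2a (-1.69) lie apart from the other neighbours, which are near 0.

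Likeness of pattern was measured as the root mean square difference of log2 CPM, centred on each gene's mean over the 6 libraries, among 8587 tested genes of at least 10 CPM. Since the fall itself sets most of it, it is a description. The searched genes most like Atp1b1 were Rab3ip (0.80) and Gsta4 (0.81). Of the 8 genes Trpm1 (0.58), Chchd10 (0.62), Lad1 (0.70) and Colq (0.77) were nearer to Atp1b1 than these. For Tubb2b the nearest searched genes were the sialyltransferase genes St8sia1 (0.61) and St8sia6 (0.63), while Colq (0.56) was nearer. For Colq they were the same genes, St8sia6 (0.31) and St8sia1 (0.33). Outside the 8 genes Trpm1 was nearest to Rab3ip (0.46) and Ccdc64 (0.53), though Chchd10 (0.32) was nearer. In the same search Chchd10 was nearest to the calcium release channel gene Ryr2 (0.30) and Ccdc64 (0.39). Pla2g4f was nearest to Ccdc64 (0.25) and the phosphatase gene Dusp10 (0.28). Lad1 was nearest to Nod1 (0.22), a sensor of bacterial peptidoglycan. Actn1 was nearest to Nod1 (0.19) and to Lef1 (0.20), a transcription factor of naive T cells. Among the 8 genes themselves Lad1 and Pla2g4f (0.31) and Trpm1 and Chchd10 (0.32) were the nearest pairs, and Atp1b1 and Actn1 (1.02) were the farthest apart.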

How the data were processed

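The deposited tables, 1 for each sample, hold counts of reads for 38924 gene models, as total and unique reads of genes, exons and introns, per the file headers. Reads were placed on GRCm38 per the submitters' processing notes. Aligner, counter and annotation: not given in the sources used here. Per the labels' protocols, full-length cDNA was amplified with SmartSeq V2 from 1 ng of RNA and Nextera XT was used for the libraries. The RPKM and ratio columns were left out. Total gene reads were tested with edgeR 4.0.16 in R 4.3.3 (TMM factors, minimum count 10 and total 15, robust quasi-likelihood fit on group, Benjamini-Hochberg adjustment at 0.05 over 13694 genes). CPM use TMM-scaled library sizes. The SE was computed as log2 fold change over the square root of F. Alternatives were unique, exon and intron reads, DESeq2 1.42.0, RLE factors, no filter, a block on sample number and leaving out libraries. The fit was checked on simulated counts.

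Named were the 8 genes, called related genes and the 2 most counted of each list, the 2 genes most like each of the 8, the called fallers next to them, and overlapping or nearest rows. Some genes named by this rule are not reported here. Others are named as chosen after their values were seen, or because the block or DESeq2 called them. The 8 genes and all lists were chosen with earlier results of these data known. Samples with the same number deviated together from their group means (correlations 0.40, 0.26 and 0.27), which meets the rule for pairs, from the data and not from the labels. The test, on group alone, does not use the pairs, and the block is given beside results whose call it changes. Correlations of 0.163 (ILT3+ sample 2, ILT3- sample 3) and 0.117 (ILT3+ sample 3, ILT3- sample 2) were found across numbers. No pair of libraries was the same within sampling noise (chi-square 18.3 to 128 per degree of freedom), and each was counted as 1 sample.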

Additional observations from a re-analysis of the deposited data

How the results depend on the processing

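Over 109 alternative values of the log2 fold changes of the 8 genes, 103 stayed within the spread of the replicates, 6 moved beyond it and 0 changed sign, with a range of -3.76 to -1.30. The 6 were Atp1b1 on intron reads (-2.93) and without the samples numbered 1 (-2.82), Trpm1 on intron reads (-1.99), Chchd10 without the samples numbered 1 (-1.63), and Pla2g4f on exon (-2.53) and intron reads (-1.30). The cause was not tested. With the sample number as a replicate block 932 genes and 9 related genes were called, against 316 and 2 without it. DESeq2 called 1041 and 12, and 786 and 14 were called without the samples numbered 1. Leaving out 1 library each gave 31 to 322 genes and 0 to 3 related genes. The 3 counts of 0 arose on leaving out sample 2 or 3 of the ILT3+ group or sample 3 of the ILT3- group, and had 18, 19 and 18 related genes at an unadjusted p under 0.05 in edgeR, and DESeq2 was not run on these subsets. Unique reads (340 genes and 2 related genes), exon reads (236 and 3), RLE factors (314 and 2) and no filter (395 and 3) stayed within 1.5 times of the counts. Depth limits genes near the floor of 3 reads, and Atp1b1 in ILT3+ libraries rested on 40 exon reads in all.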
